A study of Mus musculus with 6 samples.

Results

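Hindlimb skeletal muscle of wild-type mice was compared at postnatal day 14 (P14) and postnatal day 2 (P2), the ends of the first 2 weeks after birth, across every gene that reached 1 FPKM in 2 or more of these 4 libraries. FPKM scales the fragments of a gene to its length and to the size of the library, so levels of different genes can be set side by side. Of the 39010 lines of the expression table, 13262 passed this rule, and 11927 of these (89.9%) were protein-coding. At P14 and at P2 there were 2 libraries each, and 2 libraries from postnatal day 7 (P7) completed the series. All mice were wild type on a mixed strain background. Total RNA from whole muscle was sequenced after ribosomal RNA depletion with a kit that keeps strand. The labels call the libraries biological replicates but do not say that each came from a separate animal, so the p-values here describe the spread among these libraries, which may be technical.

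Mouse hindlimb muscle is immature at birth. In the weeks that follow, embryonic and neonatal myosins give way to the fast adult myosins, the membrane systems that release and take up calcium are completed, mitochondria multiply, and neuromuscular junctions exchange their fetal acetylcholine receptor for the adult form. Muscle stem cells stop dividing as fibres cease to gain nuclei, and bone marrow replaces the liver as the main site of blood formation in the same weeks. Whole muscle also holds fibroblasts, vessels, nerve and blood, and in bulk RNA fewer cells of a type and less RNA per cell cannot be told apart.

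The libraries carried markers of skeletal muscle. Ckm, the muscle creatine kinase, had 2089 and 1495 FPKM at P14 and 466 and 723 FPKM at P2, and Des, the muscle intermediate filament desmin, had 256 and 209 FPKM at P14 and 148 and 183 FPKM at P2. Replicates correlated at 0.970 at P14 and 0.957 at P2 on the log2(FPKM + 1) scale over genes. Ttn, the gene of the giant sarcomere protein titin, was listed at 0 in replicate 1 of P14 but at 926 FPKM in replicate 2, and at 600 and 620 FPKM at P2, so a listed 0 can be a failed estimate. The Y-linked genes Uty, Ddx3y and Eif2s3y were high in every P14 library and in replicate 1 of P2 but below 0.1 FPKM in replicate 2 of P2, so sex was not balanced between the stages. Without genes on the X and Y chromosomes, 1521 genes were higher and 1622 lower.

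Across the table, 1556 members (11.7%) were higher in P14 than in P2 muscle and 1742 (13.1%) were lower, by limma on log2(FPKM + 1) over all 6 libraries with Benjamini-Hochberg adjusted p below 0.05. The median log2 difference of the members was -0.04, with a median standard error of 0.19. Both P14 libraries exceeded both P2 libraries for 3846 members (29%), and both lay below them for 4695 (35.4%). Leaving out a library gave 338 higher and 630 lower without replicate 1 of P14, 847 higher and 728 lower without replicate 2 of P14, 851 higher and 1666 lower without replicate 1 of P2, 978 higher and 1156 lower without replicate 1 of P7, and 981 higher and 1165 lower without replicate 2 of P7. The balance of the directions was not stable: without replicate 2 of P2 2149 were higher and 1241 lower, under median-of-ratios scaling 2676 were higher and 1865 lower, and under scaling to the sum of nuclear protein-coding genes 1391 were higher and 4385 lower. The authors' deposited table of their own P14 to P2 comparison gave 2624 of the members as higher and 1881 as lower at an unadjusted p below 0.05. Members that reached 1 FPKM only through both P14 libraries numbered 198, and 690 passed only through both P2 libraries, whereas 11148 (84.1%) reached it in all 4.

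A gene was called on where both libraries of a stage reached 1 FPKM and off where both stood below 0.1 FPKM. These sets were chosen by the difference between the stages, so their values are a description. Far more genes were off at P14 and on at P2 than the reverse. Off at P14 were 55 genes, 31 of them protein-coding, and 42 of the 55 were listed at 0 in both P14 libraries. On at P14 and off at P2 were 7 genes, of which only Cyp4f39, a cytochrome P450 of the fatty acid hydroxylase family, is protein-coding, and all 7 were listed at 0 in both P2 libraries. In P7 muscle the mean of each of the 31 protein-coding genes of the off set lay between the ends, and 9 of them still reached 1 FPKM in both P7 libraries. By the size of the step between low values, a single fragment on a span of about 1 kilobase was worth 0.086 and 0.084 FPKM in the P14 libraries and 0.063 and 0.065 FPKM in the P2 libraries, so off at this depth means about 1 fragment per kilobase or fewer. By this step the P14 libraries had 73.3% and 75% of the depth of replicate 1 of P2, and replicate 2 of P2 had 96.9%. How far the lower depth at P14 adds to the genes off at P14 was not tested.

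**Figure D1:**
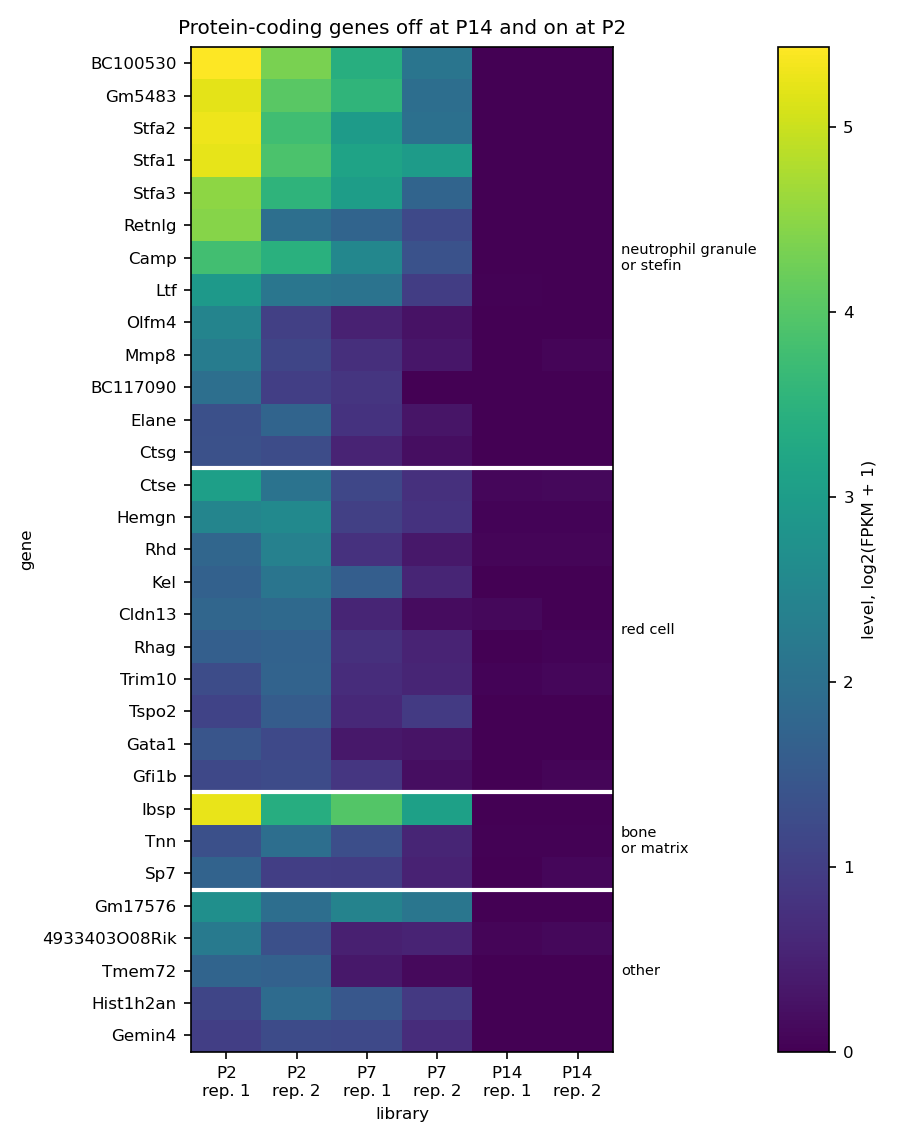
Level, as log2(FPKM + 1) by colour, of the 31 protein-coding genes that were off at P14 and on at P2, with 1 row per gene and 1 column per library in the order P2, P7 and P14. White lines part the genes by role: 13 of neutrophil granules and stefins, 10 of red cells, 3 of bone or matrix and 5 others. The P14 columns are at or near 0 in every row, the P7 columns are intermediate, and the stefin genes and Ibsp are brightest at P2.

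The largest group of genes off at P14 encodes granule proteins and stefins of neutrophils, the short-lived white cells that mature in bone marrow. It held 13 of the 31 protein-coding genes. BC100530, Gm5483, Stfa1, Stfa2, Stfa3 and BC117090 belong to a family of stefins, small inhibitors of cysteine proteases. BC100530 was listed at 0 in both P14 libraries and had 42.2 and 19.2 FPKM at P2. Stfa2 was likewise at 0 at P14, with 38.5 and 12.6 FPKM at P2. These family members share much of their sequence, so the split of fragments among them is uncertain. The 6 genes lie within 271 kilobases at chr16:36184212-36455392 of GRCm38, a stretch with 23 lines of the table in which no other line passed the expression rule. Just before it, at chr16:36156811-36161948, Stfa2l1 missed the off set with 0 and 0.291 FPKM at P14 and had 34.1 and 14.2 FPKM at P2. Camp, the antimicrobial peptide cathelicidin, was at 0 at P14 and had 12.9 and 9.94 FPKM at P2. Ltf, the iron-binding protein lactoferrin, had 0.0270 and 0 FPKM at P14 and 6.50 and 3.41 FPKM at P2. The serine proteases Elane and Ctsg, the collagenase Mmp8, and Olfm4 and Retnlg, secreted proteins of the same cells, completed the group.

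The second group was of red cell precursors, with 10 genes. Gata1, the transcription factor that directs red cell and platelet formation, was listed at 0 in both P14 libraries and had 1.72 and 1.29 FPKM at P2. Hemgn, a nuclear protein of blood precursors, had 0.0323 and 0.0316 FPKM at P14 and 4.55 and 4.94 FPKM at P2. Kel and Rhd carry blood group antigens of the red cell membrane. Kel was at 0 at P14, with 2.22 and 3.32 FPKM at P2, and Rhd had 0.0519 and 0.0508 FPKM at P14 and 2.48 and 4.23 FPKM at P2. Ctse, Cldn13, Rhag, Trim10, Tspo2 and Gfi1b made up the rest. The next group held 3 genes of bone and its matrix. Ibsp, bone sialoprotein, was at 0 at P14 and had 37.3 and 9.41 FPKM at P2. Sp7, the transcription factor of bone-forming cells, had 0 and 0.0745 FPKM at P14 and 2.32 and 1.01 FPKM at P2. The other 5 genes, among them the histone gene Hist1h2an and Gemin4, a subunit of the complex that assembles splicing particles, shared no role.

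Marker lists of the same cell types hold some of these genes themselves, so their counts are not independent of the off set. Neutrophil and marrow markers summed to 4.18 and 3.74 FPKM at P14 and 490 and 249 FPKM at P2, and 16 of the 27 matched markers were at 0 in both P14 libraries. All 20 that passed the expression rule were lower at P14, but 12 of these belong to the off set and 18 of the 20 passed the rule only through P2. S100a9, the most abundant at P2 and a calcium-binding protein of neutrophils, had 1.25 and 1.23 FPKM at P14 and 125 and 63.7 FPKM at P2. Erythroid markers summed to 860 and 849 FPKM at P14 and 1030 and 1982 FPKM at P2, and 11 of 17 were lower, of which 3 belong to the off set. Of the 17, 10 passed the rule only through P2. The adult globins were not called: Hba-a1 had 168 and 169 FPKM at P14 and 234 and 447 FPKM at P2. Cartilage and bone markers summed to 48.8 and 48.7 FPKM at P14 and 415 and 215 FPKM at P2, with 14 of 20 lower and 2 higher. Of these 20, 12 passed the rule only through P2, and 2 of the 14 belong to the off set. Mast cell markers summed to 16.4 and 16.6 FPKM at P14 and 142 and 102 FPKM at P2, with 5 of 6 lower. In replicate 1 of P2 the neutrophil and bone sums were the higher of the pair, and in replicate 2 the erythroid sum was. The part of blood, marrow or bone in the pieces sampled was not tested.

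The bases just before the start are shown for 4 genes off at P14, 2 of the red cell and 2 of the stefin group, because each holds the letters AGATAA, a form of the site bound by GATA factors. The sequences are from RefSeq on GRCm38.p6, 100 bases 5′ to 3′ on the gene's own strand, and capitals mark AGATAA. They were chosen after the values were seen.
Kel, chr6:41704326-41704425, minus strand: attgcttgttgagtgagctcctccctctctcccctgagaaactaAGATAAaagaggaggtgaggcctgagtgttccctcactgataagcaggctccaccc
Rhd, chr4:134864436-134864535, plus strand: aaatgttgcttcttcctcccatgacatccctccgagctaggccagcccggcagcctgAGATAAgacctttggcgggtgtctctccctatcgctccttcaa
Stfa1, chr16:36277048-36277147, plus strand: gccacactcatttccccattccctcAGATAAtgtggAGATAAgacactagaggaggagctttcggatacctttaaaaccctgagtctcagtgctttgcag
Stfa3, chr16:36455393-36455492, minus strand: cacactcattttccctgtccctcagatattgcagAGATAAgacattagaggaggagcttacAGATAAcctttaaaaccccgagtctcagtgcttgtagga
Each of the stefin sequences holds the letters at 2 places. Searched on both strands in windows from 250 bases before to 50 after the start, AGATAA occurs in 11.2% of all 32851 RefSeq promoters. Among promoters of the protein-coding members it occurs in 6.29%, but only 74.3% of the members had one in the table. That is below the 80% asked of a set, so a comparison with them is void. For the off set as a whole the comparison is void too, since only 24 of its 31 protein-coding genes (77.4%) had a promoter in the table.

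The other 24 features off at P14 are non-coding, with spans of 120 to 354 bases, among them small nucleolar RNAs, small nuclear RNAs, miRNA precursors and pseudogenes. For 12 of them the step between low values of features of the same span could be read. All 21 of their P2 values were whole multiples, from 1 to 4, of the smallest shared value within a tolerance of 0.01, so these values rest on 1 to 4 fragments wherever that smallest value stands for 1 fragment. Most of the 21 are themselves that smallest value, and so are whole by construction. The smallest value did not always stand for 1 fragment. Of 5 such values in the set on at P14, 4 were whole, and Gm26316, a small nuclear RNA, stood at 0.50 of the smallest shared value in replicate 1 of P14. The 6 non-coding features on at P14 include Gm24620, a small nucleolar RNA listed at 0 in both P2 libraries and at 14.9 and 24.8 FPKM at P14. Gm24620 is the only 1 of the 7 that reached 5 FPKM in both libraries, against 14 of the 55 off at P14.

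Genes near the limits show how the sets end. Prss34 missed the off set with 1.33 and 0.970 FPKM at P2, and Bin2 missed it with 0.934 and 0.912 FPKM at P2, while Sp7 entered it with a lower P2 value of 1.01 FPKM. Klf1, a red cell transcription factor, missed it with 0.102 FPKM in a P14 library, and Ctse entered with 0.0888 FPKM. Of the opposite set, Cyp4f39 entered with a lower P14 value of 1.00 FPKM, and Rsph1 missed it with 0.156 FPKM in a P2 library. With off set at below 0.5 FPKM, 42 genes were on at P14 and off at P2, and 196 were off at P14 and on at P2. Leaving out a library asks less of a gene: 67 and 43 genes were on at P14 without replicate 1 and replicate 2 of P14, and 25 and 32 without replicate 1 and replicate 2 of P2, while 91, 99, 136 and 159 were off at P14 without the same libraries.

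That wider set shows which protein-coding genes began near the floor at P2. It held 26 protein-coding genes on at P14, and these few are named after their values were seen. Thrb, the beta receptor of thyroid hormone, had 2.34 and 2.15 FPKM at P14 and 0.149 and 0.397 FPKM at P2, and both P7 values lay between. Chac1, which degrades glutathione, had 3.33 and 4.28 FPKM at P14 and 0.140 and 0.327 FPKM at P2. Ntf5, a neurotrophin, had 1.2 and 1.1 FPKM at P14 and 0.114 and 0.326 FPKM at P2. Asb15, a muscle subunit of ubiquitin ligases, had 1.59 and 1.06 FPKM at P14 and 0.146 and 0.277 FPKM at P2.

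Members were next sorted into 5 classes by the mean FPKM of a stage. Between the stages 22.3% of members were in another class, 1356 in a higher one at P14 and 1595 in a lower one. Between the replicates of a stage 11.6% of members changed class at P14 and 13.1% at P2. The class below 1 FPKM held 1028 members at P14 and 451 at P2, and the class of 1 to 10 FPKM held 8417 at P14 and 9192 at P2. At the top, 40 members stood at 1000 FPKM or more at P14 and 27 at P2, of which 27 and 14 were protein-coding. Shares of summed FPKM were taken over nuclear protein-coding members only, classed in each library on its own. Those at 1000 FPKM or more held 17.2% at P14 and 10.4% at P2, as means of 2 libraries. The highest mean at both stages was that of Gm10800, listed as protein-coding, with 3852 and 5532 FPKM at P14 and 11463 and 5906 FPKM at P2. Gm10801, which ranked 2 at P2, had 2242 and 1554 FPKM at P2. Neither gene was called, and both are part of these sums and of the sums behind the class shares below. The middle classes held 3427 members at P14 and 3340 at P2 from 10 to 100 FPKM, and 350 at P14 and 252 at P2 from 100 to 1000 FPKM.

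**Figure D2:**
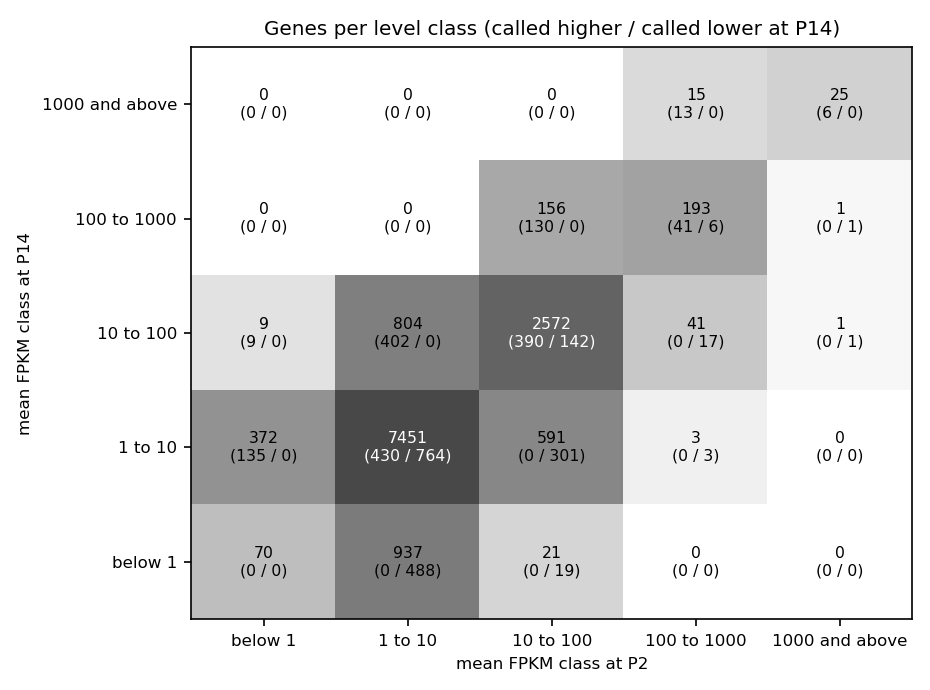
Members by class of mean FPKM at P2 (across) and at P14 (up), with a darker shade for more members. Each cell gives the number of members and, in brackets, how many limma called higher and lower at P14. Most members lie on the diagonal, 9 moved from below 1 FPKM to the class of 10 to 100 FPKM, and 21 moved the opposite way.

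By 2 classes or more, 9 members stood higher at P14 and 25 stood lower in the means of the stages. Steps of that size also occurred between replicates, with 20 members higher and 17 lower in replicate 1 than in replicate 2 of P14, and 13 higher and 22 lower in replicate 1 than in replicate 2 of P2. Between single libraries of the stages, 14 to 41 members were higher at P14 and 34 to 40 lower. The highest of the 9 was Nctc1, a non-coding RNA gene on chromosome 7, at chr7:142544609-142558596. Nctc1 had 61.1 and 61.6 FPKM at P14 and 0.306 and 0.967 FPKM at P2, a log2 difference of 5.28 ± 0.23 (SE; limma adjusted p = 0.000355). Its P7 values of 10.2 and 12.3 FPKM lay between. Klhl33, a kelch-like protein of the family that selects targets for ubiquitin ligases, had 25.3 and 20.6 FPKM at P14 and 0.466 and 0.893 FPKM at P2, a log2 difference of 3.84 ± 0.19 (limma adjusted p = 0.000355). Smco1, a single-pass membrane protein, had 17.4 and 14.0 FPKM at P14 and 0.457 and 1.12 FPKM at P2. No library of either stage overlapped the other in these 3 genes. Their choice by a step of 2 classes makes that likely, and 29% of all members were likewise higher at P14 without overlap.

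Of the 25 members that stood lower by 2 classes or more, 21 were below 1 FPKM at P14 and between 10 and 100 FPKM at P2. They include genes of neutrophils and bone, such as Camp, Mmp9, Ibsp, Spp1 and Bglap. The other 4 were Mir433, a microRNA precursor, and 3 genes of immature muscle. Myh8, the neonatal myosin heavy chain, had 32.9 and 28.6 FPKM at P14 and 1063 and 1221 FPKM at P2, a log2 difference of -5.17 ± 0.21 (limma adjusted p = 0.000355). Sln, sarcolipin, a small inhibitor of the calcium pump, had 5.44 and 10.2 FPKM at P14 and 168 and 251 FPKM at P2 (log2 difference -4.60 ± 0.33, limma adjusted p = 0.000921). Myl4, the embryonic and atrial myosin light chain, had 8.58 and 7.92 FPKM at P14 and 112 and 96.1 FPKM at P2 (log2 difference -3.50 ± 0.17, limma adjusted p = 0.000355). All 3 lay between the ends at P7 and kept their calls without any single library.

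The 100 most abundant nuclear protein-coding genes shared 62 names between the stages, against 90 between the P14 libraries and 84 between the P2 libraries. Among the genes that reached the 100 highest at either stage, Myh2, Mybpc2 and Myh1 climbed the most places. Myh4, the heavy chain of the fastest fibres, ranked 6 at P14 and 160 at P2, with 3001 and 2201 FPKM at P14 and 11.7 and 248 FPKM at P2. The authors' deposited comparison instead signed Myh4 as lower at P14, without an unadjusted p below 0.05. The P2 libraries differed widely in Myh4, and its log2 difference of 5.52 ± 1.19 (limma adjusted p = 0.0194) lost its call without replicate 1 of P14 (limma adjusted p = 0.0895) and without replicate 2 of P14 (limma adjusted p = 0.0608). Pvalb, the calcium buffer parvalbumin, ranked 9 at P14 and 192 at P2, with 2724 and 1883 FPKM at P14 and 26.5 and 196 FPKM at P2. Myh1 ranked 21 at P14 and 387 at P2, and Myh2, of the fast oxidative fibres, 97 at P14 and 1131 at P2. Myh8 ranked 1107 at P14 and 7 at P2, Dlk1 1719 at P14 and 85 at P2, and Sln 4391 at P14 and 74 at P2. Replicate 1 of P2 held the lower value of Myh4, Pvalb, Myh1 and Myh2.

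Gene classes were also weighed by their share of the summed FPKM of nuclear protein-coding genes. Contractile proteins held 13.9% and 13.2% at P14 and 6.73% and 7.68% at P2. Nuclear-encoded subunits of oxidative phosphorylation held 7.98% and 7.47% at P14 and 3.50% and 4.63% at P2. Calcium handling and excitation held 3.43% and 3.05% at P14 and 1.08% and 1.31% at P2. Shares of glycolysis and of fatty acid oxidation were likewise higher in both P14 libraries. In the other direction stood genes of growth. Fetal growth and imprinted genes held 0.303% and 0.311% at P14 and 1.02% and 1.04% at P2, and replication-dependent histones held 0.369% and 0.307% at P14 and 1.25% and 1.56% at P2. Cell cycle genes held 0.0813% and 0.0720% at P14 and 0.320% and 0.3325% at P2. Cytosolic ribosomal proteins, extracellular matrix and erythroid markers also held a smaller share at P14. The FPKM sums of ribosomal proteins overlapped, at 16468 and 12881 at P14 and 13202 and 15804.5 at P2. The sums of all nuclear protein-coding genes, by which shares are divided, were 239562 and 202341 at P14 and 159532 and 193814 at P2. In none of these 11 classes did the shares of the P14 and P2 libraries overlap, and each gave a two-sided exact permutation p = 0.33, the smallest that 2 libraries against 2 allow.

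**Figure D3:**
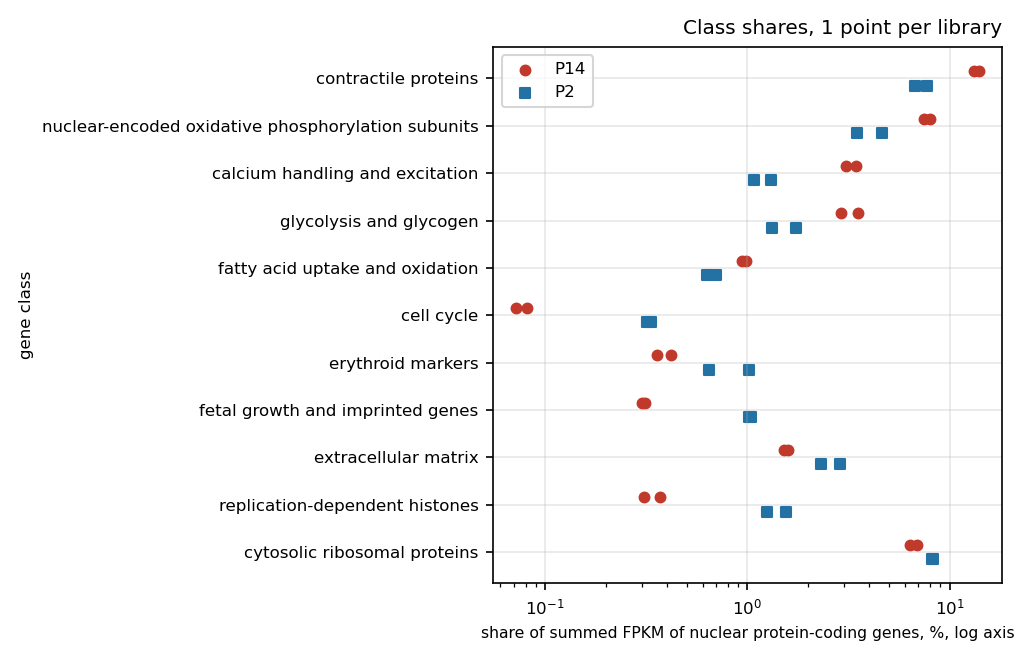
Share of the summed FPKM of nuclear protein-coding genes, in percent on a log axis, held by 11 gene classes, with 1 point per library (circles P14, squares P2). The circles lie to the right of the squares in contractile proteins, oxidative phosphorylation, calcium handling, glycolysis and fatty acid oxidation, and to the left in the other 6 classes.

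Within the contractile list, 23 of 45 genes were higher at P14 and 4 were lower. The risers include adult and fast forms, but also Myl3, Mybph and Actc1, of which Mybph and Actc1 were also listed as developmental muscle isoforms. Mybpc2, fast myosin-binding protein C, had 756 and 482 FPKM at P14 and 30.6 and 91.8 FPKM at P2 (log2 difference 3.48 ± 0.50, limma adjusted p = 0.00600). Actn3, the alpha-actinin of fast fibres, had 694 and 468 FPKM at P14 and 61.6 and 171 FPKM at P2. The 4 that were lower were Myh8, Myl4, Myh3 and Tnnt2. Myh3, the embryonic heavy chain, had 3.22 and 6.51 FPKM at P14 and 99.0 and 78.7 FPKM at P2, and Tnnt2, cardiac troponin T, had 4.26 and 3.75 FPKM at P14 and 32.5 and 21.3 FPKM at P2. Actc1, the cardiac actin that is abundant in fetal muscle, went the other way, with 1594 and 792 FPKM at P14 and 305 and 309 FPKM at P2 (log2 difference 1.87 ± 0.36, limma adjusted p = 0.0141). Its P7 values of 162 and 216 FPKM were below both ends. How fragments were split between Actc1 and related actin genes was not tested. Without replicate 1 of P14 the list counted 6 higher and 4 lower, without replicate 2 of P14 14 and 6, without replicate 1 of P2 14 and 4, and without either P7 library 15 and 4. Actn3 and Actc1 lost their calls without replicate 1 of P14 (limma adjusted p = 0.0770 and 0.0640), and Mybpc2, Myh1, Myh2, Myh8, Myh3 and Myl4 kept theirs without any single library.

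Calcium handling moved more evenly, with 25 of 32 genes higher and 3 lower. Ryr1, the calcium release channel, had 119 and 103 FPKM at P14 and 34.0 and 50.04 FPKM at P2 (log2 difference 1.40 ± 0.24, limma adjusted p = 0.00937). Trdn, triadin, which anchors the release complex, had 286 and 229 FPKM at P14 and 56.1 and 73.6 FPKM at P2. Casq1, the calcium store protein of fast fibres, had 1104 and 745 FPKM at P14 and 155 and 247 FPKM at P2. Clcn1, the chloride channel that steadies the fibre membrane, had 29.9 and 26.1 FPKM at P14 and 5.09 and 7.16 FPKM at P2 (log2 difference 2.04 ± 0.19, limma adjusted p = 0.00208). The 3 lower genes were Sln, the ryanodine receptor Ryr3 and the cardiac and slow form Casq2. Ryr3 had 1.64 and 1.93 FPKM at P14 and 10.9 and 13.2 FPKM at P2, and Casq2 had 46.2 and 64.0 FPKM at P14 and 151 and 152 FPKM at P2. Without replicate 1 of P14 the list counted 12 higher and 2 lower, and Ryr1 and Casq2 were among those that lost their calls (limma adjusted p = 0.0631 and 0.0508).

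Channels of the fibre surface split by subunit. Of 17 sodium and calcium channel subunits 7 were higher and 3 lower, and without replicate 1 of P14 the counts were 3 and 1. Scn4b, a sodium channel beta subunit, had 35.9 and 25.8 FPKM at P14 and 1.22 and 4.90 FPKM at P2 (log2 difference 3.12 ± 0.43, limma adjusted p = 0.00532). Scn3b, also a beta subunit, had 0.955 and 1.48 FPKM at P14 and 13.7 and 9.11 FPKM at P2 (log2 difference -2.47 ± 0.22, limma adjusted p = 0.00179). Scn3b was below Scn4b in both P14 libraries and above it in both P2 libraries. Of 24 potassium channel genes 10 were higher and 1 was lower, against 5 and 1 without replicate 1 of P14. Kcna7 had 14.1 and 10.6 FPKM at P14 and 1.09 and 2.07 FPKM at P2.

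In energy metabolism, 72 of 84 nuclear-encoded subunits of oxidative phosphorylation were higher at P14 and 1 was lower. The single lower gene was Cox6b2, the testis form of a cytochrome oxidase subunit, with 0.664 and 0.914 FPKM at P14 and 2.2 and 3.28 FPKM at P2. Cox7a1, the heart and muscle form of another subunit, had 500 and 398 FPKM at P14 and 49.9 and 123 FPKM at P2 (log2 difference 2.50 ± 0.41, limma adjusted p = 0.00861). Cox7a1 lost its call without replicate 1 of P14 (limma adjusted p = 0.0524), and Cox6b2 lost it when any one of the 4 P14 and P2 libraries was left out (limma adjusted p from 0.0566 to 0.164). Leaving out a library moved the count of the list strongly, to 2 higher without replicate 1 of P14, 33 without replicate 2 of P14, 35 without replicate 1 of P2 and 41 without either P7 library, while both P14 libraries exceeded both P2 libraries in 81 of the 84. Mitochondrial ribosomal proteins had 28 of 76 higher and none lower, with 67 of 76 not overlapping and higher. That count was 2 without replicate 1 of P14, 8 without replicate 1 of P2, 12 without either P7 library, 18 without replicate 2 of P14 and 48 without replicate 2 of P2.

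Fuel genes rose beside them. Of 40 genes of glycolysis and glycogen 26 were higher and 5 lower, and of 34 genes of fatty acid uptake and oxidation 18 were higher and none lower. Without replicate 1 of P14 the counts were 6 higher and 0 lower for glycolysis, and 3 higher for fatty acids, and the lower count for glycolysis was 1 without replicate 2 of P14 and 2 without replicate 2 of P2 or either P7 library. Phka1, the muscle regulatory subunit of phosphorylase kinase, had 65.2 and 40.8 FPKM at P14 and 6.75 and 8.54 FPKM at P2 (log2 difference 2.61 ± 0.25, limma adjusted p = 0.00209). Pdk4, the kinase that shuts off pyruvate oxidation, had 96.4 and 83.0 FPKM at P14 and 12.4 and 16.2 FPKM at P2 (log2 difference 2.58 ± 0.22, limma adjusted p = 0.00171). Fabp3, the fatty acid binding protein of muscle, had 352 and 319 FPKM at P14 and 98.4 and 110 FPKM at P2. Mb, the oxygen store myoglobin, had 192 and 182 FPKM at P14 and 5.01 and 19.96 FPKM at P2 (log2 difference 4.07 ± 0.52, limma adjusted p = 0.00441). Slc25a25, a mitochondrial carrier of ATP-Mg and phosphate, had 51.0 and 33.4 FPKM at P14 and 3.78 and 4.31 FPKM at P2. The libraries of the stages did not overlap in any of these 5 genes, which were named for large differences, against 29% of all members higher without overlap.

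Ubiquitin ligase genes of muscle rose as well, with 17 of 30 higher and none lower. Fbxo40, a muscle F-box protein, had 45.6 and 36.3 FPKM at P14 and 3.02 and 2.54 FPKM at P2 (log2 difference 3.47 ± 0.18, limma adjusted p = 0.000504). Trim63, the ring finger protein MuRF1 of muscle atrophy, had 41.2 and 35.4 FPKM at P14 and 7.48 and 8.25 FPKM at P2, and Fbxo32, atrogin-1, had 5.11 and 5.55 FPKM at P14 and 1.55 and 1.46 FPKM at P2. Not called, with libraries that overlapped between the stages, were Asb4, at 2.59 and 2.31 FPKM at P14 and 2.79 and 2.55 FPKM at P2, and Mib1, at 14.1 and 12.2 FPKM at P14 and 12.9 and 14.7 FPKM at P2. Without replicate 1 of P14 the list counted 8 higher, and Fbxo40, Klhl33 and Trim63 were among those that kept their calls without any single library.

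Of 30 nuclear receptors, transcription factors that respond to hormones and lipids, 8 were higher and 2 lower. Esr1, the alpha receptor of estrogen, had 8.88 and 8.58 FPKM at P14 and 2.88 and 3.18 FPKM at P2 (log2 difference 1.27 ± 0.15, limma adjusted p = 0.00337). Nr4a1, an early response receptor, had 18.3 and 13.7 FPKM at P14 and 2.49 and 2.40 FPKM at P2. Thrb, Nr1d2, Esrrg, Rora and Ppard also rose, and Pparg, a regulator of fat cells, and Rara, a retinoic acid receptor, were lower. The balance depended on scaling: with libraries scaled to the sum of nuclear protein-coding genes, 6 were higher and 6 lower. Without replicate 2 of P14, replicate 1 of P2 or either P7 library the counts were 5 higher and 0 lower, and without replicate 1 of P14 they were 6 higher and 0 lower. Esrrg, Rora, Ppard, Pparg and Rara lost their calls in each of these 5 fits (limma adjusted p from 0.0508 to 0.183).

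**Figure D4:**
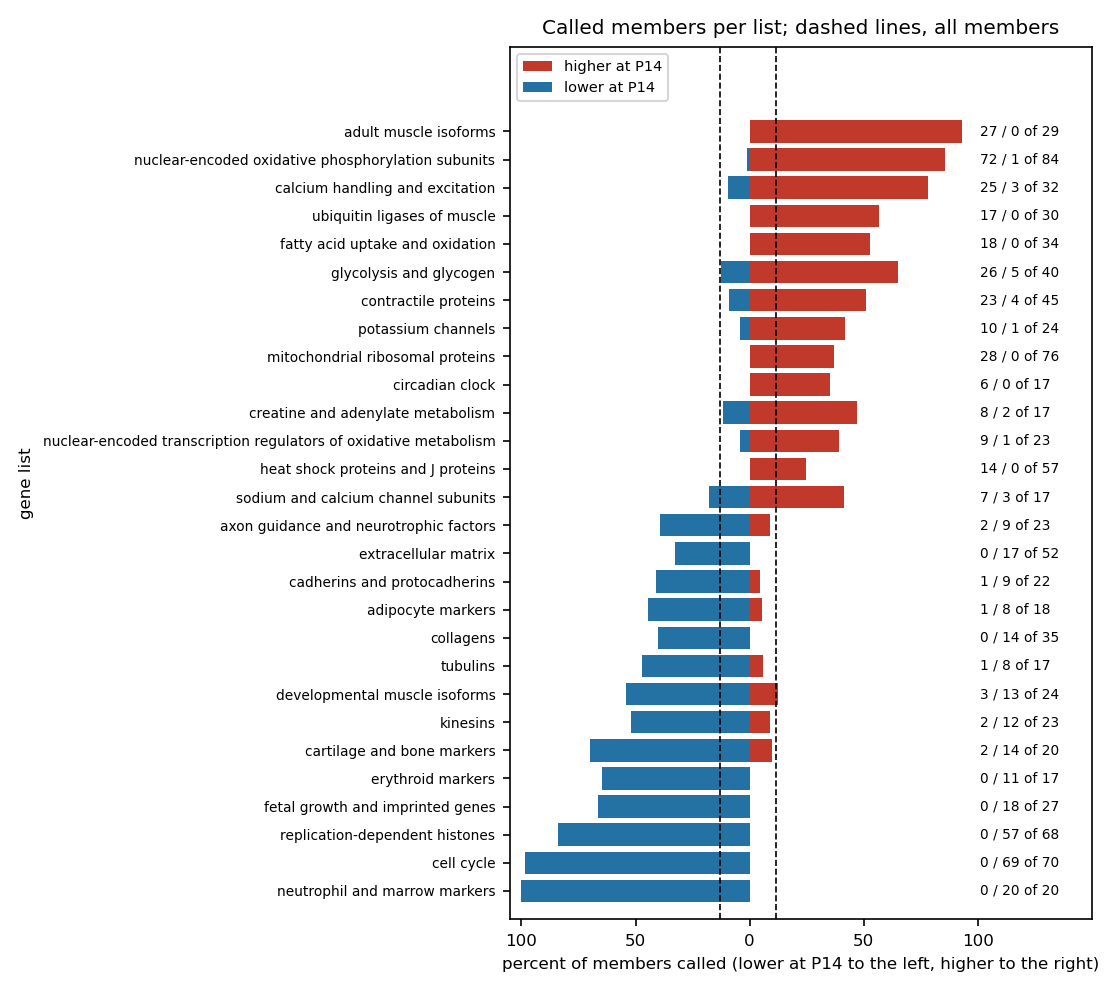
Percentage of the members of 28 gene lists that limma called higher at P14 (red, right) or lower at P14 (blue, left), with the counts printed beside the bars as higher / lower of members. The lists were selected by their values, as those of at least 15 members with the largest excess in either direction, and the dashed lines mark the percentages over all members, 11.7% higher and 13.1% lower.

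Genes of dividing cells fell almost as a block. Of 70 cell cycle genes 69 were lower at P14 and none higher, and the remaining gene, E2f2, had 2.72 and 2.12 FPKM at P14 and 2.89 and 6.71 FPKM at P2. Mki67, the proliferation marker Ki-67, had 6.94 and 5.07 FPKM at P14 and 27.0 and 33.7 FPKM at P2 (log2 difference -2.17 ± 0.20, limma adjusted p = 0.00191). Rrm2, a subunit of the enzyme that makes deoxynucleotides, had 1.85 and 2.15 FPKM at P14 and 11.6 and 11.4 FPKM at P2. Leaving out a library left 50 to 67 of the 70 lower, although 11 of them entered the comparison only through P2. Of 68 replication-dependent histone genes, which are expressed while DNA is copied and share near-identical sequences, 57 were lower and none higher. Of the 68, 8 passed the rule only through P2. Of 23 kinesins 12 were lower and 2 higher, and the lower ones include the spindle motors Kif11, Kif20a and Kif23. Without replicate 1 of P14 the kinesin counts were 6 lower and 1 higher, and without replicate 2 of P14 they were 7 lower and 1 higher, and Kif20a was among those lost in each case (limma adjusted p = 0.0578 and 0.0750).

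Fetal growth and imprinted genes gave 18 of 27 lower and none higher, and 15 to 18 stayed lower whichever library was left out. Dlk1, a Notch-like membrane protein expressed from the paternal allele, had 21.9 and 19.8 FPKM at P14 and 174 and 218 FPKM at P2 (log2 difference -3.16 ± 0.20, limma adjusted p = 0.000777). Igf2, the fetal insulin-like growth factor, had 177 and 163 FPKM at P14 and 445 and 585 FPKM at P2. Plagl1, a zinc finger protein, had 18.2 and 19.6 FPKM at P14 and 119 and 123 FPKM at P2 (log2 difference -2.62 ± 0.17, limma adjusted p = 0.000805). In contrast, the non-coding H19, which neighbours Igf2, was not called, with 1089 and 1041 FPKM at P14 and 1331 and 1638 FPKM at P2. Nctc1, the largest riser among genes below 1 FPKM at P2, lies close to H19, whose coordinates are chr7:142575529-142578143.

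The matrix between fibres fell in part. Of 52 extracellular matrix genes 17 were lower and none higher, with 8 lower without replicate 2 of P14, 9 without replicate 1 of P14 and 26 without replicate 1 of P2, and without replicate 2 of P2 there were 14 lower and 4 higher. Vcan, the proteoglycan versican, had 11.9 and 11.2 FPKM at P14 and 63.6 and 62.8 FPKM at P2 (log2 difference -2.35 ± 0.16, limma adjusted p = 0.000863). Postn, periostin, had 116 and 107 FPKM at P14 and 430 and 487 FPKM at P2, and Fbn2, the fetal fibrillin, had 2.77 and 2.17 FPKM at P14 and 19.3 and 23.8 FPKM at P2. The main fibrillar collagens were not called. Col1a1 had 398 and 345 FPKM at P14 and 413 and 644 FPKM at P2, and Col3a1 had 469 and 403 FPKM at P14 and 366 and 709 FPKM at P2, with P14 values inside the P2 range for Col3a1. Under scaling to the sum of nuclear protein-coding genes 31 of the 52 were lower.

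Cytosolic ribosomal proteins stayed near balance by this test, with 3 of 87 higher and 3 lower. Under scaling to the sum of nuclear protein-coding genes, 3 were higher and 24 lower. That scaling shifted the median log2 difference of all members to -0.29. Rpl3, a core protein of the large subunit, was among the 3 lower, with 54.2 and 44.9 FPKM at P14 and 110 and 123 FPKM at P2 (log2 difference -1.23 ± 0.20, limma adjusted p = 0.00807). Rpl3l, its muscle-specific partner, was among the 3 higher, with 102 and 65.6 FPKM at P14 and 2.81 and 22.5 FPKM at P2. Rpl3 lost its call without replicate 2 of P14 (limma adjusted p = 0.0502), and Rpl3l lost it without replicate 1 of P14 (limma adjusted p = 0.121) and without replicate 2 of P14 (limma adjusted p = 0.0642).

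Such exchanges within a gene family were followed as ratios inside each library, which do not depend on scaling between libraries. The 24 pairs of an adult or muscle form and its counterpart were chosen after the values were seen. The adult form was called higher in 24 of the 24, the counterpart lower in 15 and higher in 1, Cox7a2. The ratio was higher in both P14 libraries than in both P2 libraries in 23 pairs, and Aldoa to Aldoc was the exception. Aldoc stood near the floor and was not tested, with 0.228 and 0.340 FPKM at P14 and 0.184 and 0.0406 FPKM at P2. Its ratio is thus not informative. In 6 pairs the order of the forms turned over. Myh4 to Myh8 stood at 91.1 and 77.0 at P14 and at 0.0110 and 0.203 at P2. Chrne to Chrng, the adult and fetal subunits of the acetylcholine receptor at the neuromuscular junction, stood at 21.3 and 29.1 at P14 and at 0.162 and 0.814 at P2. Phka1 to Phka2, the muscle and liver subunits of phosphorylase kinase, stood at 16.2 and 8.42 at P14 and at 0.582 and 0.949 at P2. Rpl3l to Rpl3 stood at 1.89 and 1.46 at P14 and at 0.0255 and 0.183 at P2. The other 2 pairs started near equality: Hk2 to Hk1 stood at 4.6 and 3.85 at P14 and at 0.944 and 0.928 at P2, and Cox7a1 to Cox7a2 stood at 2.17 and 2.16 at P14 and at 0.818 and 0.995 at P2. Without replicate 1 of P14, 4 of the 24 adult forms were called higher and 6 counterparts lower, and without replicate 2 of P14 these counts were 19 and 8. They were 21 and 15 without replicate 1 of P2, 24 and 10 without replicate 2 of P2, and 22 and 9 without either P7 library. Among the forms of the 6 pairs that turned over and Aldoa, without replicate 1 of P14 Myh4, Chrne, Hk2, Hk1, Phka2, Cox7a1, Cox7a2, Rpl3l and Aldoa lost their own calls (limma adjusted p from 0.0524 to 0.195). Myh4, Hk1, Cox7a2 and Rpl3l also lost theirs without replicate 2 of P14, Rpl3 did so there too, Cox7a2 and Aldoa without replicate 1 of P2, Hk1 without replicate 2 of P2, and Hk1 and Cox7a2 without either P7 library (limma adjusted p from 0.0502 to 0.135).

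**Figure D5:**
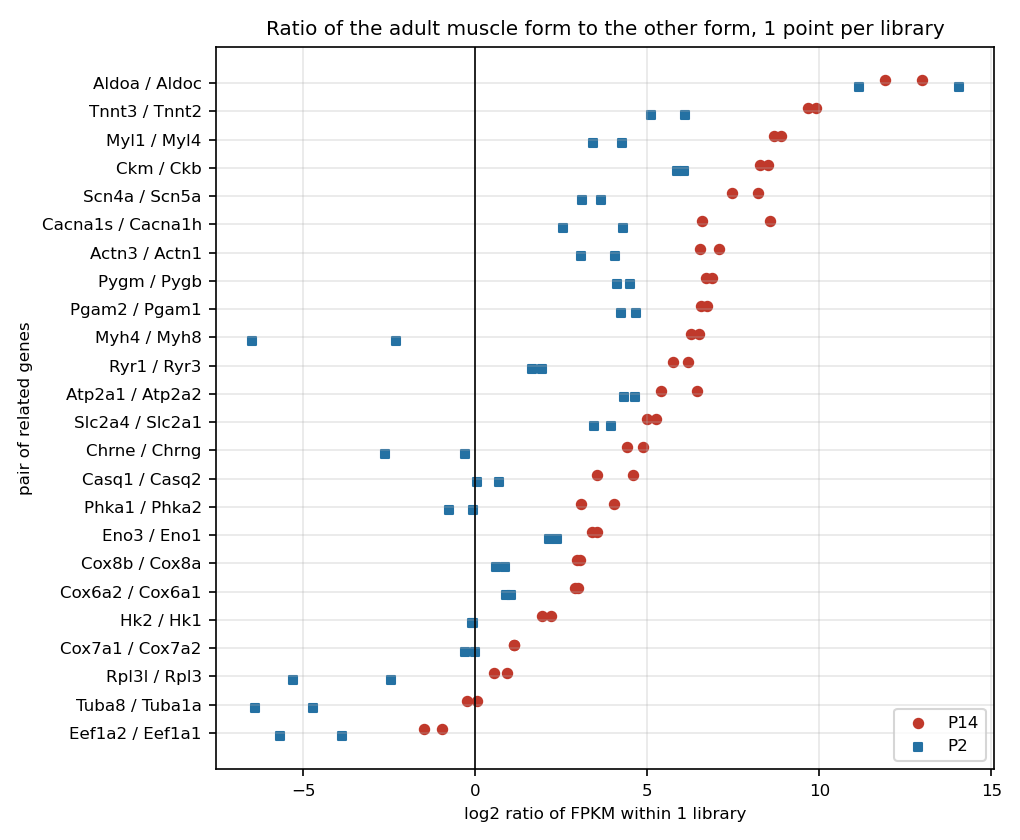
Ratio of the FPKM of the adult or muscle form to that of its counterpart within 1 library, on a log2 axis with a line at equal levels, for 24 gene pairs (circles P14, squares P2). In 23 pairs both circles lie to the right of both squares, and in 6 pairs the squares lie left of the line and the circles right of it.

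Pairs that kept their order differed in how far the adult form pulled ahead. Tnnt3 to Tnnt2, fast and cardiac troponin T, stood at 956 and 820 at P14 and at 34.1 and 68.0 at P2. Ckm to Ckb, the muscle and brain creatine kinases, stood at 363 and 311 at P14 and at 57.9 and 66.5 at P2. Eno3 to Eno1, the muscle and general enolases, moved least of the 3, with 11.6 and 10.5 at P14 and 4.37 and 5.21 at P2. Eef1a2 to Eef1a1, forms of the translation elongation factor, remained below 1, at 0.510 and 0.354 at P14 and 0.0195 and 0.0681 at P2. Tuba8 to Tuba1a, a muscle-enriched and a developmental alpha tubulin, reached 1.03 and 0.842 at P14, against 0.0117 and 0.0375 at P2. In each of these 5 pairs the P14 and P2 libraries did not overlap.

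Among genes of nerve supply, of 23 axon guidance and neurotrophic genes 9 were lower and 2 higher, with 3 lower and 0 higher without replicate 1 of P14, 4 lower and 0 higher without replicate 2 of P14, and 6 lower without either P7 library or replicate 2 of P2. Robo2, a receptor of the Slit guidance cues, had 0.880 and 1.25 FPKM at P14 and 5.72 and 4.80 FPKM at P2 (log2 difference -1.60 ± 0.16, limma adjusted p = 0.00251). Vegfa, the main growth factor of vessels, had 50.4 and 51.3 FPKM at P14 and 16.9 and 27.1 FPKM at P2 (log2 difference 1.21 ± 0.25, limma adjusted p = 0.0163), and lost its call without replicate 1 of P14 (limma adjusted p = 0.0792) and without replicate 2 of P14 (limma adjusted p = 0.0672). Markers of Schwann cells, the cells that wrap motor axons, summed to 83.4 and 188 FPKM at P14 and 99.7 and 328 FPKM at P2. These sums overlapped, since replicate 2 was the higher at each stage.

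The bases before the start are shown for 3 of the genes that rose, as each holds the MEF2 motif, the site of a family of transcription factors that act on muscle genes. They were chosen after the values were seen. The sequences are from RefSeq on GRCm38.p6, 5′ to 3′ on the gene's own strand, and capitals mark the motif.
Clcn1, chr6:42286585-42286684, plus strand: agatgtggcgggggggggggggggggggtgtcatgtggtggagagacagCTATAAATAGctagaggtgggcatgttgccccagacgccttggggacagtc
Dupd1, chr14:21714577-21714676, minus strand: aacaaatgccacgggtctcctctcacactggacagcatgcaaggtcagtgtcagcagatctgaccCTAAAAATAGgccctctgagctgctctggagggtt
Xirp2, chr2:67445902-67446001, plus strand: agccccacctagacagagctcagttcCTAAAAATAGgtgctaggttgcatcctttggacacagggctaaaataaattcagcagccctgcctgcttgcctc
Dupd1, a dual-specificity phosphatase of muscle, had 30.2 and 17.2 FPKM at P14 and 2.46 and 4.69 FPKM at P2. Xirp2, which binds actin filaments, had 182 and 145 FPKM at P14 and 20.7 and 30.6 FPKM at P2 (log2 difference 2.64 ± 0.25, limma adjusted p = 0.00213). Among genes higher at P14 by a log2 difference of at least 2, 78 of 91 (85.7%) had promoters in the RefSeq table, 108 in all. Searched on both strands from 250 bases before to 50 after the start, MEF2 letters occurred in 5 of the 108 (4.63%) and in 0.557% of all 32851 promoters. The letters TGACCTTG, a form of the site of estrogen-related receptors, occurred in 7 (6.48%) and in 1.56% of all. CANNTG, the E-box bound by myogenic factors among others, occurred in 66.7% of the set and in 72.3% of all, and TATAAA in 15.7% of the set and in 13.6% of all. Among promoters of the protein-coding members, of which 74.3% had one in the table, CANNTG occurred in 63.6%, TATAAA in 7.36%, MEF2 letters in 0.544% and TGACCTTG in 1.04%. That coverage of the members is below the 80% asked of a set, so the comparison with them is void. The set held CANNTG less often than all promoters. No test was made of these shares, and the letters alone show no binding.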

How the data were processed

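RNA of 6 hindlimb muscle libraries (P14, P7 and P2, 2 each) was compared. The authors deposited FPKM per gene. The submitters' processing notes name CASAVA 1.2-14, FastQC 0.10.1, TopHat2 2.0.8, Cufflinks 2.2.1, Cuffdiff 2.2.1 and GRCm38. Any scaling between libraries, the annotation, the use of strand in counting and total depth are not given in the sources used here, so depth is unknown beyond the step between low values, and intervals from counts were not made. The p-value in the authors' deposited table of P14 against P2 is not adjusted, per the file headers, and was used for counts and for Myh4. The signed fold of that table was not printed, and only its sign is given for Myh4. Starts were raised by 1 to be 1-based, since 77.7% of the 37449 lines found in GENCODE M21 had a deposited start 1 base lower.

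FPKM was taken as log2(FPKM + 1), and the 13566 genes with at least 1 FPKM in 2 of 6 libraries were fitted with limma 3.58.1 in R 4.3.3, with stage means, a variance trend and 3 residual plus 3.80 prior degrees of freedom. Tests were two-sided with Benjamini-Hochberg adjustment over all 13566 genes, and a log2 difference is P14 minus P2 on this scale, which understates the change of low genes. Of these genes, 11.5% were higher and 12.9% lower. Shares were tested with exact permutation (scipy 1.17.1). Genes named are those of highest level in the on and off sets, the 3 with the largest difference in each list, those of 1000 FPKM or more, and the largest movers by level. Roles came from general knowledge. Others are named as chosen after their values were seen, or serve as examples of a list. A few genes that the rule names are not reported here. Of 864 list entries 846 matched. The members and lists were chosen with earlier results of these data known. Alternatives were other pseudocounts, filters, scalings, limits and designs, and leaving out each library.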

Additional observations from a re-analysis of the deposited data

How the results depend on the processing

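Counts of 1556 genes higher and 1742 lower at P14 varied with the processing. The excess of lower genes turned into an excess of higher ones with a minimum of 5 FPKM (1367 higher, 886 lower), median-of-ratios scaling (2676 and 1865), quantile normalization (2208 and 2078), a minimum absolute log2 difference of 1 (866 and 766), without replicate 2 of P14 (847 and 728), without replicate 2 of P2 (2149 and 1241) and with the crossed block below. The members' median log2 difference of -0.04 was 0.08 with a minimum of 5 FPKM, 0.03 under median-of-ratios scaling, 0.01 without replicate 2 of P14 and 0.07 without replicate 2 of P2. Scaling to the sum of nuclear protein-coding genes gave 1391 higher and 4385 lower, no filter 589 higher and 788 lower, and a fit to the 4 P14 and P2 libraries only 987 higher and 1169 lower. Leaving out each library gave 338 to 2149 higher and 630 to 1666 lower. The 7 genes on at P14 became 42 with off below 0.5 FPKM, 1 with on at 5 FPKM and 4 under scaling to the sum of nuclear protein-coding genes. The 55 genes off at P14 became 196 with off below 0.5 FPKM and 14 with on at 5 FPKM. Leaving out a library gave 25 to 67 genes on at P14 and 91 to 159 off, by construction, since fewer libraries had to pass. The cause of the other shifts was not tested. Replicate numbers did not pair the libraries: the deviations of equal numbers correlated at -0.16 between P14 and P2, 0.03 between P14 and P7 and -0.02 between P7 and P2. With a replicate block 1113 genes were higher and 1288 lower, and with the numbers of P14 crossed, chosen after seeing the data, 1866 were higher and 1809 lower. Of 305 genes named by rule or in the text 262 were called, 159 of these stayed called without each of the 6 libraries, and in 5370 comparisons of such a gene with an alternative 427 lost and 84 gained a call and 0 reversed. The class shares kept their direction under every alternative run, but not their size. Without the 10 highest genes the contractile share was 1.35 percentage points higher at P14, against 6.35 with them. With 2 libraries a stage and no depth given, genes near 1 FPKM rest on few fragments.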
